A study of Homo sapiens with 36 samples.

Results

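The cytosolic ribosomal protein genes were the protein-coding genes of the deposited expression table whose symbols followed the RPL or RPS naming scheme, together with RPLP0, RPLP1, RPLP2 and RPSA. This rule gave 84 of the 21797 genes in the table, namely 43 core genes of the large (60S) subunit, 31 core genes of the small (40S) subunit, the 3 P-stalk genes and 7 copies related to a core gene (RPL3L, RPL7L1, RPL22L1, RPL26L1, RPL36AL, RPL39L and RPS27L). All 84 had a mean level of at least 1 CPM (counts per 1000000) and entered the tests. The cells were UM-SCC-1, an established head and neck squamous carcinoma line. They carried a retroviral scramble control, 1 of 2 hairpins against ALKBH5 or 1 of 2 hairpins against RBM33, which the sample titles call shRNA. Every group, the controls included, had been selected with 10 ug/mL blasticidin for 4 days, so infection and selection are common to all of them. Each target had its own scramble group, and RNA-seq and m6A-seq were done on 6 groups each with 3 samples per group, 36 samples in all. The RNA-seq libraries used were 3 of each scramble, 2 of each ALKBH5 hairpin, 2 of RBM33 shRNA-1 and 3 of RBM33 shRNA-2, and the other 3 were not analysed here. Whether replicates came from separate cultures is not in the labels, so every p-value refers to the spread among these samples, which may be technical.

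A ribosome is built from ribosomal RNA and ribosomal proteins, with the P-stalk proteins of the large subunit recruiting the translation factors that drive elongation. Transcripts of ribosomal proteins are among the most abundant in growing cells, and most start with a cytosine followed by a run of pyrimidines (the 5′ TOP motif), through which mTORC1 and LARP1 control their translation together. ALKBH5 removes the methyl group of N6-methyladenosine (m6A) from RNA, and the series title names RBM33 as an m6A reader that ALKBH5 needs for this.

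The first bases of 16 members are printed because the start of the transcript carries the TOP motif. In the m6A tables, many member peaks listed for ALKBH5 shRNA-1, but hardly any for the other hairpins, lie near it. Each line gives 5 bases before the RefSeq start and 25 bases from it, 30 bases in all, 5′ to 3′ on the gene's strand, from RefSeq GRCh38.p14. Capitals mark a pyrimidine start, defined as a C at the first transcribed base followed by 4 bases that are each C or T, and a line without capitals has none at that position. The first 8 lines pair a core gene with its related copy:
RPL26: tagttCTCTTcccttttgcggccatcaccg
RPL26L1: gggtcggcgaacgaaacgcggagctcggga
RPS27: tcgctCCTTTccggcggtgacgacctacgc
RPS27L: cgagcgcagatcgcttgcagcttgctagct
RPL22: acctcCCTTTctaactccgctgccgccatg
RPL22L1: gcttcCTCTCtgctctcgcggccgactcgc
RPL36A: ggtttCTTTCtttccgcgccgatagcgctc
RPL36AL: cctttcctgttaggcgagagctgcgaaagg
The next 4 lines are members with some of the largest RNA differences:
RPL27: aggttagcggaagtgtccttctttcctttt
RPL35: acttcCTCTTtccctcggagcgggcggcgg
RPLP1: gagagCCCCTttcctcagctgccgccaagg
RPS21: tgcttCCTTTctctctcgcgcgcggtgtgg
The last 4 lines are members with large m6A differences listed at the start:
RPS10: tccttCCTTTccagccccggtaccggaccc
RPS19: tcgttCCCTTtcccctggctggcagcgcgg
RPL41: cctttCTCTCggccttagcgccattttttt
RPL37A: tcttcCTTTCtgggctcggacctaggtcgc
The windows lie at chr17:8383169-8383198 (minus strand) for RPL26, chr5:172958724-172958753 (plus) for RPL26L1, chr17:42998414-42998443 (plus) for RPL27, chr6:34426045-34426074 (minus) for RPS10 and chr19:41860250-41860279 (plus) for RPS19.

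RefSeq start windows were matched by symbol for 67 of the 84 members, and 17 had no entry. Of the 67 members, 47 (70.1%) had a pyrimidine start, against 1404 of 27305 symbols (5.14%) in the whole table of windows. The motif was read on the gene's strand at the annotated first base only. It was present in 25 of 35 60S genes, 18 of 24 40S genes and all 3 P-stalk genes, but in 1 of 5 related copies, RPL22L1. The printed pairs show this: RPL26, RPS27 and RPL36A carry the pyrimidine start, while their copies RPL26L1, RPS27L and RPL36AL do not.

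Library depth was 4493849 to 6733017 reads, so that 3 reads corresponded to 0.43 to 0.66 CPM. Intervals from such counts cover counting error only, and replicate libraries differed by more than counting error, with a chi-square of 3.03 to 9.09 per degree of freedom. ALKBH5 RNA was lower in the libraries labelled ALKBH5 shRNA than in their scramble, by a log2 difference of -0.53 (SE 0.08, limma adjusted p = 9e-05). RBM33 RNA was not called lower in the libraries labelled RBM33 shRNA (-0.10, SE 0.06, limma adjusted p = 0.272), so any direction given for those libraries rests on their label. Mitochondrially encoded RNA took 3.49% to 6.45% of the reads. Of 8 squamous epithelial markers, KRT5, KRT14, KRT17, KRT6A and TP63 were not among the genes listed with expression values. CDH1, EPCAM and SFN summed to only 2.15 to 6.30 CPM, so the squamous identity of the cells rests on the label. Leukocyte markers summed to 0.51 to 4.24 CPM (2 of 4 genes listed), endothelial markers to 0 to 1.93 CPM (1 of 3) and fibroblast markers to 17.9 to 27.4 CPM (4 of 4). The part of other cell types in the results was not tested, and in bulk RNA fewer cells of a type and less RNA per cell cannot be told apart.

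The 84 genes together took 4.44% to 5.64% of the reads. Their summed level was 44619, 43723 and 42449 CPM in the ALKBH5 scramble libraries (43597 ± 1090, SD, n = 3) and 56030, 56195 and 58982 CPM in the RBM33 scramble libraries (57069 ± 1659, SD, n = 3). The control groups therefore did not overlap, and the RBM33 scramble stood higher. The ALKBH5 shRNA libraries summed to 48557 and 50776 CPM (shRNA-1) and to 56073 and 48411 CPM (shRNA-2). RBM33 shRNA libraries summed to 48104 and 55945 CPM (shRNA-1) and to 50958, 46823 and 52411 CPM (shRNA-2). All 4 ALKBH5 shRNA libraries lay above all 3 of their scrambles, all 5 RBM33 shRNA libraries lay below all 3 of theirs, and the shRNA libraries of both targets covered overlapping ranges. The 40S genes held 35.2% to 38.1% of this sum in every library.

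**Figure D1:**
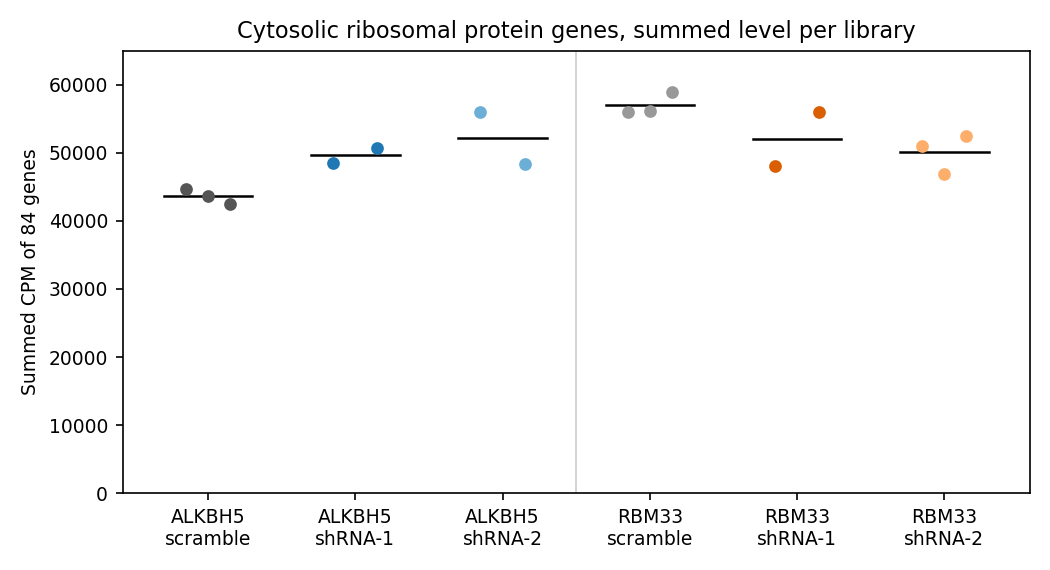
Summed level of the 84 ribosomal protein genes in CPM (y axis, from 0) in each of the 15 RNA-seq libraries, grouped by scramble or hairpin (x axis). Points are libraries and horizontal lines are group means. The ALKBH5 scramble libraries sit between 42449 and 44619 CPM and the RBM33 scramble libraries between 56030 and 58982 CPM, and the shRNA libraries of both targets span 46823 to 56073 CPM.

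Libraries of 1 hairpin could differ across most members. In ALKBH5 shRNA-2, 79 of 84 members were higher in replicate 1 than in replicate 3, with each library at a median log2 distance of 0.23 from the other. In RBM33 shRNA-1, 79 of 84 were higher in replicate 2 than in replicate 1, at a median distance of 0.17. The spread between replicates of the members' median level was 0.0782 on the log2 scale (pooled SD, 9 degrees of freedom).

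Levels of different genes are compared per kilobase (kb) of the deposited gene-model length, as the mean over all libraries. RPS2, a 40S protein of the mRNA entry side, was the highest member at 1353 CPM per kb, followed by RPL13A at 719, RPS6 at 712 and RPL35 at 709. The lowest were RPL3L, the copy of RPL3 known from striated muscle, at 1.196 CPM per kb, RPS27L at 1.96, RPS29 at 5.94 and RPL39L at 12.9. The medians were 335 CPM per kb for the P-stalk, 163 for the 60S genes, 138 for the 40S genes and 31.2 for the related copies. The deposited lengths join all exons of a gene, which lowers values where a model is long, as for RPS29 with 9840 bases and RPS27L with 8825 bases. The table also held 236 ribosomal protein pseudogenes, summing to 2608 to 3443 CPM per library. Reads of a member and of its near-identical processed copies cannot always be told apart, so all levels here are uncertain to that extent.

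With hairpins against ALKBH5, ribosomal protein genes of both subunits rose. Averaged over both hairpins and set against the ALKBH5 scramble, 43 of the 84 members were called higher and 0 lower by limma on log2(CPM + 1) at an adjusted p under 0.05, and 74 of 84 differences were positive. Over all genes tested, 7.93% were called higher and 7.18% lower. The median member difference was 0.24 on the log2(CPM + 1) scale, beside 0.01 for all genes. Of the 0 members called lower, 2 had a negative difference with an unadjusted limma p under 0.05, and edgeR and DESeq2 on recovered reads called 43 and 45 members higher and none lower. The 43 comprised 23 of 43 60S genes, 15 of 31 40S genes, 2 of 3 P-stalk genes and 3 of 7 related copies. In 42 members all 4 ALKBH5 shRNA libraries lay above all 3 scrambles, as did 12.3% of all genes, and in none did they all lie below, as did 11.9%. Mitochondrial RNA moved with these groups: it took 4.31% to 6.45% of reads in the ALKBH5 scramble and 3.49% to 4.16% in the ALKBH5 shRNA libraries, and its part in the result was not tested. With library totals that leave out ribosomal and mitochondrial genes, 43 members were still called higher and 1 lower (RPS27A), with a median of 0.21.

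Among the 60S genes, RPL27, a gene mutated in some Diamond-Blackfan anaemia families (ENSG00000131469, hg38 chr17:42998273-43002959), changed most. Its level was 474, 534 and 460.3 CPM in the ALKBH5 scramble, 752 and 796 CPM for shRNA-1, and 970.2 and 711 CPM for shRNA-2. Every shRNA library lay above every scramble library, with a log2 difference of 0.71 (SE 0.109, limma adjusted p = 9.35e-05), or 1.64-fold. RPL35, which lines the exit of the nascent chain (ENSG00000136942, hg38 chr9:124857880-124861981), stood at 714, 854 and 799 CPM in the scramble, at 1191 and 1186 CPM for shRNA-1, and at 1316 and 1184 CPM for shRNA-2. The groups did not overlap, and the log2 difference was 0.63 (SE 0.101, limma adjusted p = 0.000165). RPL34 (0.60), RPL7A (0.56), RPL24 (0.53) and RPL23A (0.50) were the other 60S genes with a log2 difference of at least 0.5, with limma adjusted p of 0.000424, 8.18e-05, 0.000157 and 0.000559. The remaining 17 called 60S core genes had smaller differences.

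Among the 40S genes, RPS27, a zinc-finger protein of the small subunit (ENSG00000177954, hg38 chr1:153990762-153992155), had the largest difference. It was at 157, 157 and 126 CPM in the scramble, at 204 and 225 CPM for shRNA-1, and at 276 and 197 CPM for shRNA-2. All 4 shRNA libraries were above all 3 scrambles, with a log2 difference of 0.61 (SE 0.0972, limma adjusted p = 0.000142). In the P-stalk, RPLP1 stood at 821, 727 and 836 CPM in the scramble, at 1132 and 1089.7 CPM for shRNA-1, and at 1548 and 1107 CPM for shRNA-2. Its groups did not overlap (log2 difference 0.60, SE 0.108, limma adjusted p = 0.000492). RPLP0, the stalk base and a common reference gene for quantitative PCR, went from 851, 863 and 829 CPM to 1006, 975.4, 1127 and 953 CPM. That is a log2 difference of 0.26 (SE 0.069, limma adjusted p = 0.0133) without overlap. RPLP2, the partner of RPLP1, was at 633, 695 and 714 CPM in the scramble and at 689.8, 819, 974 and 807 CPM with the hairpins, where 1 shRNA library fell inside the scramble range, and it was not called (0.26, SE 0.12, limma adjusted p = 0.147).

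**Figure D2:**
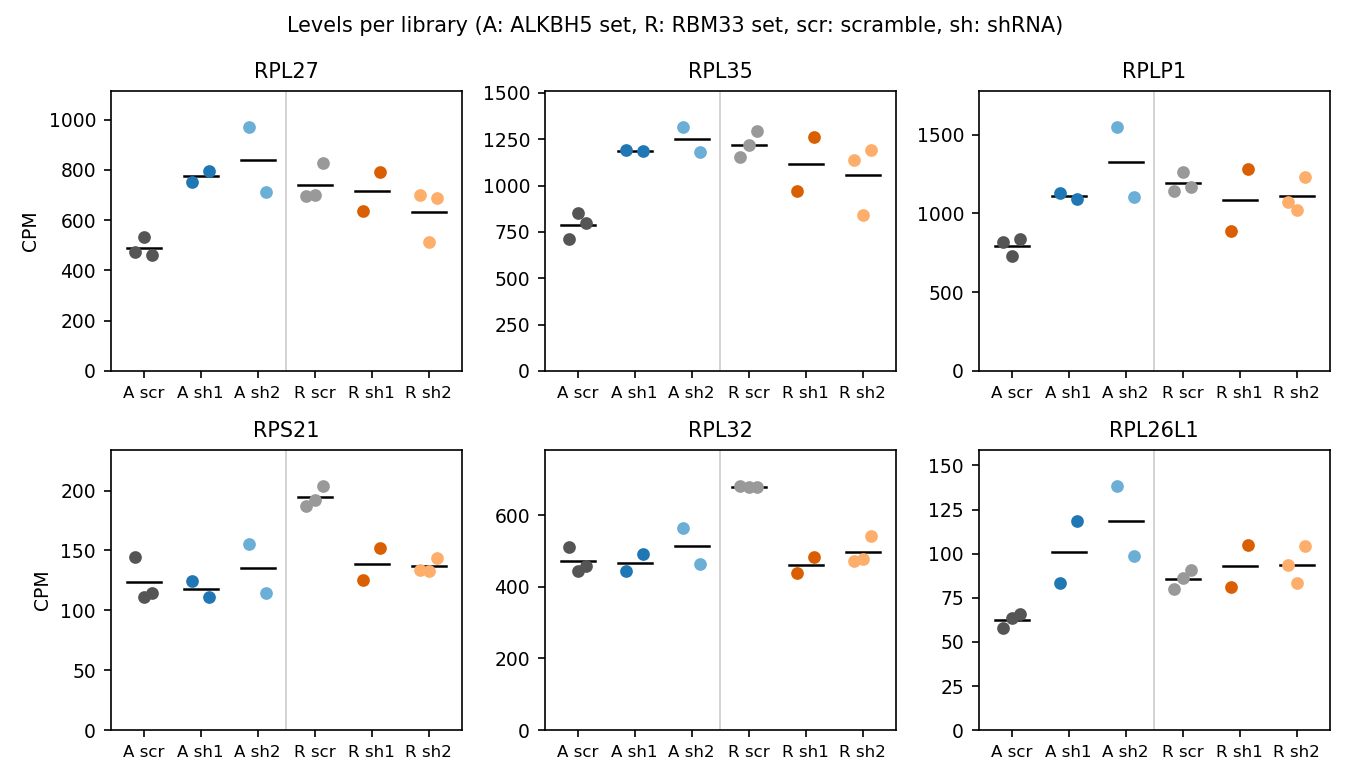
Level in CPM (y axis, from 0) of RPL27, RPL35, RPLP1, RPS21, RPL32 and RPL26L1 in each library, by group (x axis, A for the ALKBH5 set and R for the RBM33 set, scr for scramble and sh for shRNA). Points are libraries and lines are group means. RPL27 rises from 460.3 to 534 CPM in the ALKBH5 scramble to 711 to 970.2 CPM in its shRNA libraries, while RPL32 and RPS21 stand apart in the RBM33 scramble, at 677 to 680.0 CPM and 187 to 204 CPM.

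In all, 10 members had a negative difference with ALKBH5 hairpins, and none of them was called. They were RPS27A (-0.22), RPL41 (-0.21), RPL22L1 (-0.15), RPS29 (-0.10), RPL22 (-0.08), RPS12 (-0.05), RPL5 (-0.03), RPS4X, RPL30 and RPL10 (each -0.01), with limma adjusted p of 0.101 to 0.973. RPS27A, which is made as a fusion with ubiquitin, was at 893, 758 and 793 CPM in the scramble and at 648, 726, 790.2 and 639 CPM with the hairpins, so that 1 shRNA library reached the scramble range. Under totals without ribosomal and mitochondrial genes, and under plain totals, it was the 1 member called lower.

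With hairpins labelled RBM33, the direction was the other way for most members. Against the RBM33 scramble, limma called 26 members lower and 1 higher, with 72 of 84 differences negative, where 9.25% of all genes were called lower and 8.5% higher. The median member difference was -0.18, beside -0.01 for all genes. The members called lower were 15 of 43 60S genes, 9 of 31 40S genes, RPLP0 of the P-stalk and RPL39L of the copies, and the member called higher was RPS15. In 39 members all 5 shRNA libraries lay below all 3 scrambles, as did 11.6% of all genes, and in 1 member they all lay above, as did 10.8%. The count of members called in either direction went from 27 to 15, 16 and 13 without RBM33 scramble replicate 1, 2 or 3, and to 14 without RBM33 shRNA-1 replicate 1. With library totals that leave out ribosomal and mitochondrial genes it was 17 lower and 4 higher (RPL23A, RPL6, RPL7A and RPS15), while the split over all genes went from 1549 higher and 1686 lower to 1895 higher and 1218 lower. Mitochondrial RNA took 4.39% to 5.03% of reads in the RBM33 scramble and 3.85% to 6.09% in its shRNA libraries.

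RPL32, a 60S protein (ENSG00000144713, hg38 chr3:12834485-12841582), measured 680.0, 677 and 679 CPM in the RBM33 scramble, at 439 and 482 CPM for shRNA-1, and at 473, 477 and 541 CPM for shRNA-2. The 3 controls were nearly equal and above all 5 shRNA libraries, with a log2 difference of -0.51 (SE 0.073, limma adjusted p = 2.93e-05). RPS21, a 40S protein (ENSG00000171858, hg38 chr20:62387103-62388520), went from 187, 192 and 204 CPM to 125 and 152 CPM for shRNA-1, and to 134, 133 and 144 CPM for shRNA-2. No shRNA library reached the controls, and the log2 difference was -0.50 (SE 0.0968, limma adjusted p = 0.000819). RPL10, which joins the large subunit late in its maturation and contacts the tRNA (ENSG00000147403, hg38 chrX:154389955-154409168), was at 628, 635 and 668 CPM in the scramble, at 471 and 519 CPM for shRNA-1, and at 478, 476 and 436 CPM for shRNA-2. Again the groups were separate (-0.43, SE 0.0662, limma adjusted p = 7.04e-05).

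RPL12, a protein at the base of the stalk, differed by -0.42 on the log2 scale (limma adjusted p = 0.000369), and RPL35A, a further Diamond-Blackfan anaemia gene, by -0.39 (limma adjusted p = 0.000932). RPL41, which encodes a peptide of very few residues, followed with -0.38 (limma adjusted p = 0.00632), then RPS3A (-0.36), RPL8 (-0.32) and RPS2 (-0.32), with limma adjusted p of 0.00229, 0.00167 and 0.00346. RPS2 itself fell from 3862, 3737 and 4057 CPM in the scramble to 2943 and 3482 CPM for shRNA-1, and to 3102, 2792 and 3236 CPM for shRNA-2. Further lower calls, between -0.31 and -0.20, included RPL10A, RPS27A, RPS28, RPL30, RPL17, RPL28, RPLP0, RPL21, RPS20, RPS12, RPL36, RPL9, RPS18 and RPL3.

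RPS15, a 40S protein next to the decoding centre, went against the majority. It measured 417, 408 and 394 CPM in the RBM33 scramble, at 459 and 491 CPM for shRNA-1, and at 490.0, 436 and 473 CPM for shRNA-2, all above the controls (0.21, SE 0.0633, limma adjusted p = 0.0227). The call was lost without RBM33 scramble replicate 1, 2 or 3 and without RBM33 shRNA-1 replicate 2, with limma adjusted p of 0.0504, 0.0675, 0.0959 and 0.0791. RPS15 was also called higher with ALKBH5 hairpins, from 345, 315 and 337 CPM to 487, 437, 444 and 429 CPM (0.43, limma adjusted p = 8.79e-05), and no other member was called higher in both sets. The other members with a positive difference in the RBM33 set were RPS27L (0.34), RPL7A (0.21), RPL23A (0.18), RPL6 (0.17), RPS14 (0.16), RPL22 (0.12), RPL26L1 (0.11), RPL18 (0.10), RPL7L1 (0.06), RPL38 and RPLP2 (each 0.03), and none of these was called.

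**Figure D3:**
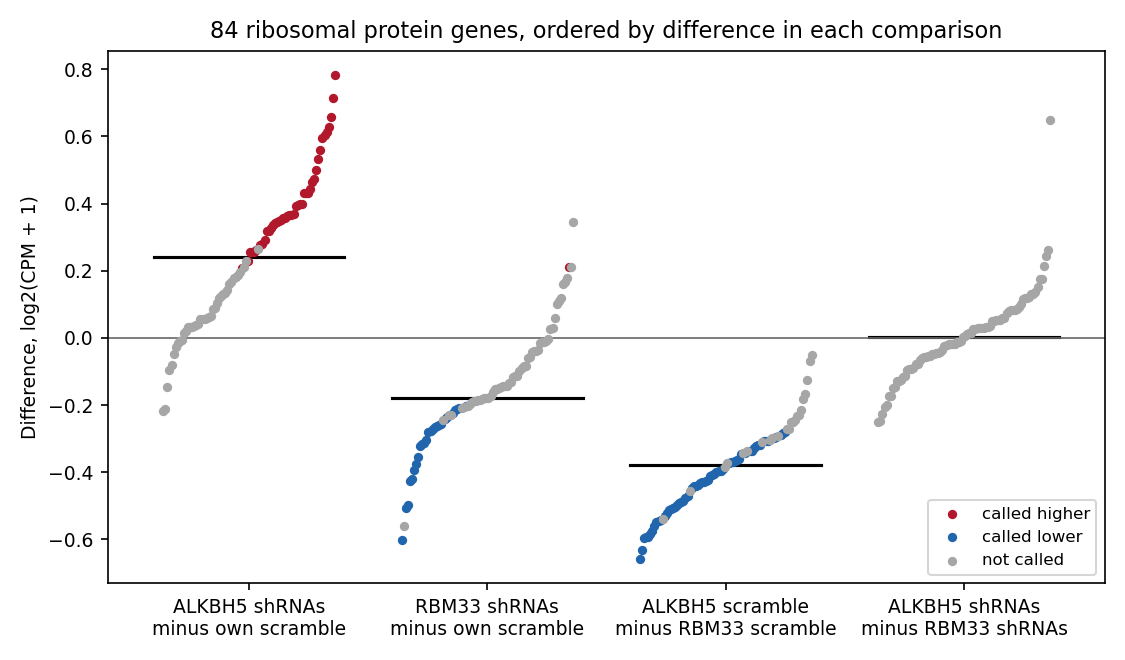
Differences of the 84 members on the log2(CPM + 1) scale (y axis), ordered by size within each of 4 comparisons (x axis). Each point is a gene, coloured by its limma call at an adjusted p under 0.05, and horizontal bars are medians. Against their own scramble the ALKBH5 hairpins have a median of 0.24 and the RBM33 hairpins -0.18, the scramble groups differ by -0.38, and the shRNA groups by 0.00.

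The difference between both effects was tested directly. It equals, gene by gene, the gap between the shRNA groups minus the gap between the scramble groups, both given below. The ALKBH5 difference exceeded the RBM33 difference in 41 members and was below it in 0 by limma at an adjusted p under 0.05, where 2.01% of all genes were called in the first direction and 0.686% in the second. No member had a negative interaction with an unadjusted limma p under 0.05, and edgeR and DESeq2 called 41 and 49 members higher and none lower. The median interaction was 0.37 and 81 of 84 values were positive, the exceptions being RPL22 (-0.20), RPL22L1 and RPL7L1 (each -0.03). The count fell to 22 on leaving out ALKBH5 scramble replicate 3. Under totals without ribosomal and mitochondrial genes it was 35 higher and 0 lower, while the split over all genes went from 366 higher and 125 lower to 273 higher and 323 lower.

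RPL27 had the largest interaction (0.86, SE 0.151, limma adjusted p = 0.00214): its difference was 0.71 with ALKBH5 hairpins and -0.14 with RBM33 hairpins, where it stood at 694, 699 and 828 CPM in the scramble and at 636, 792, 700.4, 512 and 689 CPM with the hairpins. RPL35 (0.81), RPS27 (0.77), RPLP1 (0.73), RPL26L1 (0.67), RPL35A and RPS7 (each 0.65) and RPL34 (0.63) were also among the largest. The RPL26L1 interaction (limma adjusted p = 0.0295) was lost when any 1 of 7 libraries was left out and on removing a trend with gene length, with adjusted p up to 0.09, and that of RPL34 (0.0166) was lost without ALKBH5 scramble replicate 3 (0.0613). There were 8 members called higher with ALKBH5 hairpins and lower with RBM33 hairpins, contrasts that share no library. That is 18.6% of the 43, 30.8% of the 26 and 9.52% of the 84. Of all 84 members, 31.0% were called lower with RBM33 hairpins and 51.2% higher with ALKBH5 hairpins. Members with 1 of these calls thus did not have the other more often than members in general. Of all genes tested, 0.346% had this pair of calls. The 8 members included RPL35A, RPS28, RPLP0, RPL21, RPL9 and RPS18. RPL35A showed both, at 104, 97.9 and 86.1 CPM in the ALKBH5 scramble against 113, 107, 127 and 112 CPM with its hairpins, and at 132, 128 and 121 CPM in the RBM33 scramble against 98.6, 107, 95.8, 86.7 and 91.1 CPM with its hairpins.

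Both control groups carried a scramble but differed in these genes. The ALKBH5 scramble was lower than the RBM33 scramble in all 84 members, and limma called 61 of them lower and 0 higher, where 2.21% of all genes were called lower and 0.269% higher. No member was higher with an unadjusted limma p under 0.05, and edgeR and DESeq2 called 60 and 70 lower and none higher. The called members were 32 of 43 60S genes, 27 of 31 40S genes, RPLP0 and RPLP1, and none of the 7 related copies. In 75 members the 3 ALKBH5 scrambles lay below the 3 RBM33 scrambles, as did 11.9% of all genes, and in 0 above, as did 9.04%. The median difference was -0.38. RPS21 differed most, with 145, 111 and 115 CPM against 187, 192 and 204 CPM (-0.66, SE 0.107, limma adjusted p = 0.000786).

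RPL13A, a 60S protein that also takes part in translational silencing by interferon-gamma (ENSG00000142541, hg38 chr19:49487510-49493057), measured 1709.8, 2033 and 1729 CPM in the ALKBH5 scramble and 2579.8, 2773 and 2778 CPM in the RBM33 scramble. The groups did not overlap (-0.57, SE 0.113, limma adjusted p = 0.00438). Members with differences of like size were RPL35 (-0.63), RPL27 and RPS27 (each -0.59), RPLP1 (-0.58), and RPL21 and RPL31 (each -0.55). Scaling weighed on this comparison: totals without ribosomal and mitochondrial genes moved the median of all genes by 0.10, left 39 members called lower with a median of -0.27 and 82 of 84 negative, and turned the split over all genes from 49 higher and 403 lower to 339 higher and 222 lower. Leaving out ALKBH5 scramble replicate 3 gave 37. The set a control belongs to and any batch cannot be told apart.

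Between the shRNA libraries of both targets the members did not differ by call. Limma called 0 members higher and 0 lower, where 0.0878% and 0.214% of all genes were called, with 43 positive and 41 negative differences and a median of 0.00. At an unadjusted limma p under 0.05, 2 members were higher and 6 lower, and edgeR and DESeq2 called none. RPL3L (0.65, limma adjusted p = 0.45), RPL27 (0.26, limma adjusted p = 0.27) and RPL22 (-0.25, limma adjusted p = 0.161) had the largest differences. Libraries were separated in 1 member, RPL35A, where the ALKBH5 hairpins lay above the RBM33 hairpins, as 1.6% of all genes did. In 0 members did they lie below, where 2.25% of all genes did. Both sets of differences against the own scramble, and the gap between the scrambles, share the control libraries, so they are not separate evidence.

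Taken singly, each hairpin moved the members in the direction of its pair. ALKBH5 shRNA-1 had 28 members called higher and 0 lower (5.05% and 3.48% of all genes), and ALKBH5 shRNA-2 had 40 and 0 (5.06% and 5.0%). For the lower direction, 2 and 0 members had an unadjusted limma p under 0.05, and edgeR and DESeq2 called none. These counts leaned on single libraries: shRNA-1 had 15 and 11 called members without its replicate 1 or 2, and shRNA-2 had 8 without its replicate 1. RBM33 shRNA-1 had 11 members called lower and 0 higher (5.27% and 5.62%), and RBM33 shRNA-2 had 24 and 0 (7.27% and 6.44%). In the higher direction, 5 and 3 members had an unadjusted limma p under 0.05, edgeR called none, and DESeq2 called 2 and 1. RBM33 shRNA-1 had 2 called members without its replicate 1 and 5, 7 and 7 without scramble replicate 1, 2 or 3, and RBM33 shRNA-2 had 14 and 13 without scramble replicate 1 or 3. The hairpins of 1 target did not differ from each other in any member by limma, and 0.0% of all genes were called there. At an unadjusted limma p under 0.05, 1 member was higher in ALKBH5 shRNA-2 than in shRNA-1 and 1 was lower in RBM33 shRNA-2 than in shRNA-1, and edgeR and DESeq2 called none.

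The authors' deposited table of edgeR results for each hairpin listed all 84 members. At an adjusted p under 0.05 the authors' deposited table had 30 higher and 0 lower for ALKBH5 shRNA-1 (4.34% and 2.99% of all genes) and 39 and 0 for ALKBH5 shRNA-2 (3.97% and 3.63%). For RBM33 shRNA-1 the authors' deposited table had 2 higher and 17 lower (4.98% and 4.99%), and for RBM33 shRNA-2 it had 3 and 34 (5.38% and 6.24%). The authors' deposited table of DESeq2 results gave 34 higher and 2 lower of 81 members with an adjusted p for ALKBH5 shRNA-1 (6.68% and 7.16% of all genes) and 44 and 1 of 82 for ALKBH5 shRNA-2 (6.68% and 9.0%). For the RBM33 hairpins the authors' deposited table gave 2 higher and 26 lower of 83 (6.13% and 6.29%) and 3 and 26 of 82 (6.7% and 7.27%).

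Whether the 7 related copies differ from the core genes was not tested. With ALKBH5 hairpins 3 of the 7 were called higher with a median of 0.21, beside 43 of 84 and 0.24 for all members. With RBM33 hairpins 1 of the 7 was called lower with a median of -0.01, beside 26 of 84 and -0.18. RPL26L1 (ENSG00000037241, hg38 chr5:172958729-172969771) had the largest difference of all members with ALKBH5 hairpins, with 57.9, 63.3 and 65.6 CPM in the scramble, 83.4 and 118 CPM for shRNA-1 and 138 and 98.7 CPM for shRNA-2. The groups did not overlap (0.78, SE 0.121, limma adjusted p = 0.000106). Its core relative RPL26, which also binds the p53 mRNA, was at 700.4, 633 and 597 CPM in the scramble and at 563, 689, 804 and 606 CPM with the hairpins, with overlapping groups (0.04, limma adjusted p = 0.837). RPS27L, a p53 target, rose from 8.74, 12.6 and 16.2 CPM to 18.9, 19.9, 20.6 and 19.7 CPM, all above the scrambles (0.66, SE 0.167, limma adjusted p = 0.0091), but the call was lost without ALKBH5 scramble replicate 1 (limma adjusted p = 0.101). RPL36AL was also called higher with ALKBH5 hairpins, from 63.1, 57.0 and 56.2 CPM to 65.8, 75.1, 92.7 and 69.4 CPM (0.35, limma adjusted p = 0.0274).

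RPL39L, a copy of RPL39 enriched in testis, was the copy called lower with RBM33 hairpins. It was at 18.6, 16.7 and 18.7 CPM in the scramble, at 10.3 and 13.8 CPM for shRNA-1, and at 12.3, 8.33 and 13.3 CPM for shRNA-2, a log2 difference of -0.60 (SE 0.183, limma adjusted p = 0.0247). Though the groups were separate, the call was lost without RBM33 scramble replicate 1, 2 or 3 or RBM33 shRNA-1 replicate 1, with adjusted p of 0.087, 0.0514, 0.0845 and 0.0982. RPL7L1, a factor of nucleolar pre-ribosomes, and RPL22L1 were called in neither set, with log2 differences of 0.03 and -0.15 for ALKBH5 and 0.06 and -0.11 for RBM33. RPL3L ranged from 0.57 to 6.62 CPM over all libraries and was not called (limma adjusted p = 0.763 and 0.295), and at this depth a difference of its size was not detectable.

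Some members have known roles beyond elongation. RPL11 and RPL5, which hold the 5S RNA and can bind MDM2, behaved unlike each other. RPL11 went from 427, 397 and 395 CPM to 508, 532, 565 and 498 CPM with ALKBH5 hairpins (0.37, limma adjusted p = 0.000423), whereas RPL5 went from 2032, 1991 and 1874 CPM to 1771, 2058, 2061 and 1841 CPM and was not called (-0.03, limma adjusted p = 0.877). Whether their differences differ from each other was not tested. RPSA, also known as the laminin receptor precursor, rose from 719, 733 and 687 CPM to 952, 839, 977 and 911 CPM (0.36, limma adjusted p = 0.00246), and RPS3, a protein with DNA repair activity, from 799.8, 753 and 757 CPM to 904, 870.3, 876 and 906 CPM (0.21, limma adjusted p = 0.0315). RPS6, the substrate of the S6 kinases, was at 1811, 1695 and 1713 CPM and at 1756, 1924, 2063 and 1750.1 CPM, with overlapping groups (0.10, limma adjusted p = 0.379). With RBM33 hairpins RPS27A was called lower (-0.31, limma adjusted p = 0.0153), and RPL5 (-0.20), RPL11 (-0.02), RPS6 (-0.13), RPSA (-0.11), RPS3 (-0.06) and RPL26 (-0.23) were not called.

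RNA differences are given by pyrimidine start as counts and medians, and the difference between members with and without it was not tested. Among the 47 members that have it, 26 were called higher with ALKBH5 hairpins and the median difference was 0.26, and among the 20 matched members without it 11 were called and the median was 0.32. With RBM33 hairpins 13 of 47 and 6 of 20 were called lower, with medians of -0.15 in both. Between the scrambles 34 of 47 and 13 of 20 were called lower, with medians of -0.40 and -0.34. RPL27 and RPL26L1, at the top of the ALKBH5 differences, have no pyrimidine start at the RefSeq position printed above, while RPL35, RPS27 and RPLP1 have one.

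Other genes of the pathway are given from lists chosen by function. Of all genes tested, 7.93% were called higher and 7.18% lower with ALKBH5 hairpins, and 8.5% and 9.25% with RBM33 hairpins. In a list of 16 or of 10 genes, 1 called gene is near these shares. Of the ribosomal proteins outside the naming rule, FAU and RACK1 were called higher with ALKBH5 hairpins (0.36 and 0.22, limma adjusted p = 0.00468 and 0.0393). With RBM33 hairpins FAU was called higher (0.37, limma adjusted p = 0.00215) and RACK1 was called lower (-0.21, limma adjusted p = 0.0386), a call that totals without ribosomal and mitochondrial genes did not give. Of 16 other mRNAs of the TOP class, 5 were called higher and 2 lower with ALKBH5 hairpins, among them EEF1A1, the main elongation factor that delivers tRNA (0.35), BTF3 (0.29) and HNRNPA1 (0.29), against NAP1L1 (-0.40) and the poly(A)-binding protein PABPC1 (-0.32). With RBM33 hairpins 1 was called higher, HNRNPA1 (0.25), and 4 lower, led by EEF1B2 (-0.32), PABPC1 (-0.29) and TPT1 (-0.24), where totals without ribosomal and mitochondrial genes gave 3 and 3.

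Ribosome biogenesis genes, which make and process ribosomal RNA and assemble subunits, were called higher more often than lower in both sets under each of 3 scalings. Of 42 genes, 15 were higher and 1 lower with ALKBH5 hairpins, where 7.93% and 7.18% of all genes were. RRP12 at 1.01, RRS1 at 0.73 and NOB1 at 0.66 stood against FBL at -0.31. With RBM33 hairpins 12 were higher and 2 lower, where 8.5% and 9.25% of all genes were. POLR1A at 0.78, RRP12 at 0.76 and UBTF at 0.53 stood against NOP58 at -0.36 and WDR12 at -0.28. The interaction was called in 1 of the 42, NHP2 (0.63, limma adjusted p = 0.00488), where 2.01% of all genes were called in that direction. Among 7 dedicated chaperones of ribosomal proteins, GRWD1 (0.65 and 0.56) and TSR2 (0.42 and 0.39) were called higher in both sets, BCCIP (0.35) in the RBM33 set, and none lower. Of 10 regulators of TOP mRNA translation, RPTOR, the scaffold of mTORC1, was called higher in both (0.57 and 0.77). RPS6KB2 was called lower in both (-0.40 and -0.37), EIF4EBP2 in the ALKBH5 set (-0.35), and EIF4EBP1 (-0.59) and RPS6KB1 (-0.34) in the RBM33 set.

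The m6A-seq data were deposited as tables of peaks that differ between a hairpin and its scramble, with no value per library, so their depth is unknown and no test was added. One kind of table gives each peak's m6A level as a fraction in the scramble and in the hairpin, the other an effect headed as a log fold change with no base. It was read as a natural log because, of 2000 values drawn per table, 1479 to 1679 had an exponential that was a ratio of whole numbers (denominator up to 200, relative tolerance 1e-10), where bases 2 and 10 gave 0 to 2. The names of these tables give a minimum effect of 0.5. Coordinates are on hg38. Across them, 60 of the 84 members had a listed peak and 24 had none (among them RPL10, RPL21, RPL22, RPL22L1, RPL23, RPL30, RPL32, RPL38, RPL39, RPL39L, RPL3L, RPLP0, RPS12, RPS13, RPS16, RPS18, RPS23, RPS26, RPS27A, RPS28, RPS3A, RPS9 and RPSA). The share of all genes with a listed peak across these tables is not given here, so the 60 cannot be set against it. A peak that is not listed was not necessarily unmethylated or unchanged.

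For ALKBH5 shRNA-1 the authors' deposited table of m6A fractions listed 721 peaks in 620 genes, with 22 peaks in 21 members. A higher fraction with the hairpin was given in the authors' deposited table for 19 of the 22, or 86.4%, and for 67.7% of all listed peaks. The median log2 ratio in the authors' deposited table was 1.87 for the members and 0.57 for all listed peaks. The 18 members with a higher fraction included RPL10A, RPL27, RPL29, RPL3, RPL35, RPL36, RPL41, RPL5, RPL7, RPL7A, RPLP1, RPS10, RPS14, RPS19, RPS25, RPS4X and RPS7.

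The largest fraction with the hairpin among the member peaks in the authors' deposited table was that of RPS10, a 40S protein mutated in Diamond-Blackfan anaemia, at chr6:34425976-34426025, which went from 0.100 to 0.784 (adjusted p = 0.000826). RPL41 at chr12:56116590-56116689 went from 0.154 to 0.601 in the authors' deposited table (adjusted p = 9.17e-08), and RPL3, the main core protein near the peptidyl transferase centre, at chr22:39313276-39313648 from 0.0853 to 0.530 (adjusted p = 2.3e-07). By the authors' estimate the hairpin fraction was above 0.5 in these 3 peaks and in those of RPL7L1 (0.774) and RPL36 (0.505). RPS19, the gene most often mutated in Diamond-Blackfan anaemia, had the largest ratio of the members in the authors' deposited table, from 0.0195 to 0.413 at chr19:41860218-41860267 (adjusted p = 0.00014).

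Other peaks with a higher fraction in the authors' deposited table included those of RPL36 (0.174 to 0.505), RPS4X (0.0988 to 0.437) and RPL29 (0.0768 to 0.289). The leading RNA members RPL35 (0.0504 to 0.239), RPLP1 (0.0651 to 0.233) and RPL27 (0.0510 to 0.212) were also in the authors' deposited table with a higher fraction. In the authors' deposited tables of effects, RPL27, RPLP1 and RPS4X each had 1 lower peak with ALKBH5 shRNA-2 and 0 higher. RPS10, RPL36 and RPL29 each had 1 higher and 1 lower peak with that hairpin. RPL3 had 3 higher and RPL41 had 2 higher with 0 lower, and RPS19 and RPL35 had 0 in either direction. With ALKBH5 shRNA-1, RPL35 and RPL29 each had 2 lower peaks and 1 higher in the authors' deposited table of effects. The 3 peaks with a lower fraction in the authors' deposited table were in RPS15A (0.418 to 0.255, adjusted p = 0.0956), RPS2 (0.409 to 0.240, adjusted p = 0.00399) and RPL7L1 (0.852 to 0.774, adjusted p = 0.0874), which had the highest scramble fractions of the 22. Of the 22, the RPS14, RPS25, RPS4X, RPS15A and RPL7L1 peaks were listed with an adjusted p between 0.05 and 0.0998 in the authors' deposited table.

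**Figure D4:**
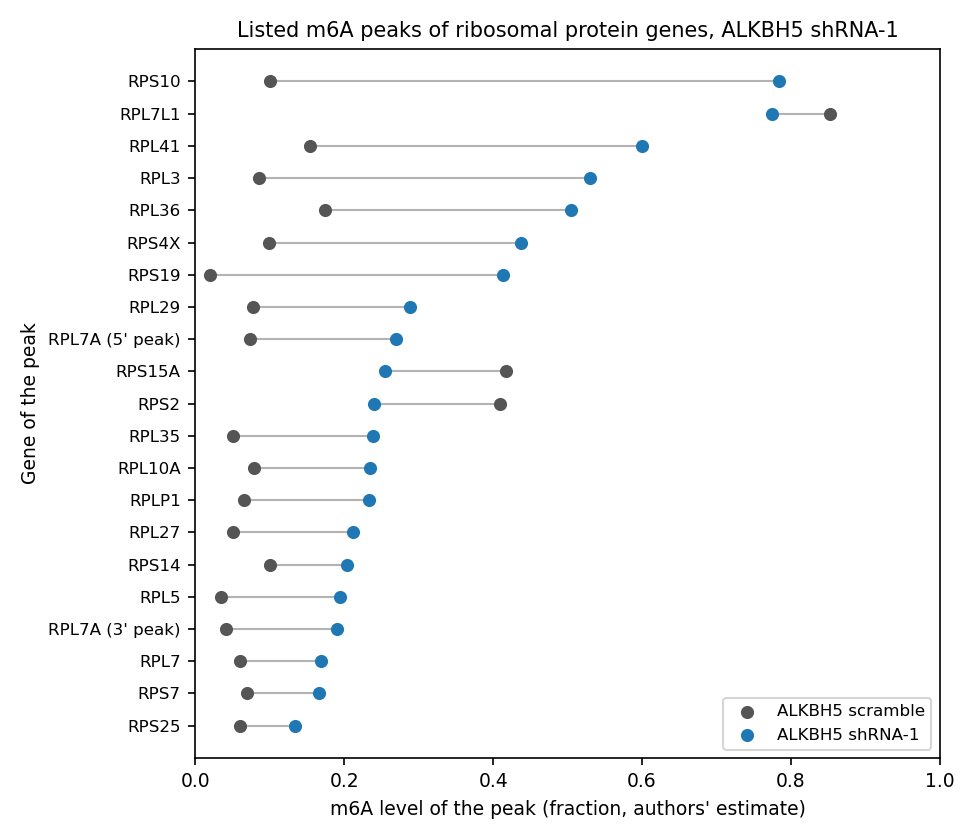
m6A level of 21 of the 22 listed peaks of ribosomal protein genes (x axis, fraction as estimated by the authors) in the ALKBH5 scramble and with ALKBH5 shRNA-1, 1 row per peak (y axis, gene). Grey points are scramble, blue points are hairpin and lines join them. RPS10 moves from 0.100 to 0.784, and RPL7L1, RPS15A and RPS2 are the rows that move down.

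For ALKBH5 shRNA-2 the authors' deposited table of m6A fractions listed 182 peaks in 146 genes, with 3 peaks in members. RPL3 went from 0.112 to 0.233 at chr22:39314126-39314802 in the authors' deposited table, while RPL7L1 went from 0.852 to 0.749. Higher fractions made up 91.2% of all 182 peaks. Adjusted p of the RPL3 and RPL7L1 peaks was 0.0562 and 0.0566 in the authors' deposited table. The RPL7L1 peak, chr6:42886919-42886993, was the 1 member peak listed in the fraction tables of both hairpins, which share their scramble. The authors' deposited table for RBM33 shRNA-1 and that for shRNA-2 listed 20 and 18 peaks and no member peak.

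The authors' deposited table of m6A effects for ALKBH5 shRNA-1 listed 13120 peaks in 6338 genes. In 42 members it listed 65 peaks, 45 higher and 20 lower, or 69.2% higher beside 64.7% of all. The members included RPL10A, RPL12, RPL13, RPL14, RPL15, RPL17, RPL18, RPL19, RPL23A, RPL24, RPL26L1, RPL27A, RPL28, RPL29, RPL3, RPL31, RPL34, RPL35, RPL36, RPL36A, RPL36AL, RPL37A, RPL4, RPL41, RPL6, RPL7, RPL7A, RPL7L1, RPLP2, RPS10, RPS19, RPS2, RPS20, RPS21, RPS24, RPS25, RPS27, RPS3, RPS6 and RPS7. RPL37A, a small zinc-finger protein of the large subunit, had the largest effect in the authors' deposited table, 4.01 at chr2:216498797-216499288, followed by RPL41 with 3.34 and RPS19 with 2.17.

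For ALKBH5 shRNA-2 the authors' deposited table of effects listed 19251 peaks in 7388 genes. In 44 members it listed 61 peaks, 29 higher and 32 lower, or 47.5% higher beside 72.5% of all. Of the 65 member peaks listed for ALKBH5 shRNA-1, 14 overlapped a member peak listed here, 13 of them in the same direction. The effect tables of these hairpins, which share their scramble, had 28 members in common. Members that had no peak in the shRNA-1 effect table included RPL11, RPL13A, RPL26, RPL27, RPL35A, RPL37, RPL5, RPL9, RPLP1, RPS15, RPS15A, RPS27L, RPS29 and RPS4X. Negative effects in the authors' deposited table were largest for RPS29 (-2.14 and -1.72), RPS27L (-1.90) and RPL26L1 (-1.67), and positive effects for RPL27A (2.02), RPL7L1 (1.56) and RPL7 (1.52).

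The authors' deposited table of effects for RBM33 shRNA-1 listed 2070 peaks in 1537 genes. It had 6 peaks in RPL27A, RPS10, RPS24 and RPS29, 3 higher and 3 lower, where 87.6% of all were higher. The authors' deposited table of effects for RBM33 shRNA-2 listed 3268 peaks in 2219 genes. It had 10 peaks in RPL27A, RPL28, RPL36, RPL8, RPL9, RPS2 and RPS29, 8 higher and 2 lower, where 87.5% of all were higher. RPL27A was the 1 member listed in all 4 effect tables. Its peak at chr11:8688844-8688893 had effects of 1.97 and 2.02 with the ALKBH5 hairpins and 1.61 and 1.65 with the RBM33 hairpins in the authors' deposited table. RPS29 was listed only with lower m6A: -1.72 and -2.14 for ALKBH5 shRNA-2, -1.08 and -0.78 for RBM33 shRNA-1, and -1.54 and -0.92 for RBM33 shRNA-2 in the authors' deposited table.

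Member peaks listed for ALKBH5 shRNA-1 often lay at the start of the gene. Of the 22 peaks in the authors' deposited table of fractions, 11 had their 5′ edge within 100 bases of the RefSeq start and all 11 were higher, where 180 of 665 listed peaks with a RefSeq start (27.1%) lay that close. Genes with such a peak included RPL10A, RPL29, RPL35, RPL36, RPL41, RPL5, RPLP1, RPS10, RPS19 and RPS4X. In the authors' deposited table of effects it was 15 of 65, again all higher, where 934 of 12335 peaks (7.57%) were that close. They included peaks in RPL10A, RPL12, RPL19, RPL27A, RPL29, RPL31, RPL35, RPL36, RPL37A, RPL41, RPLP2, RPS10, RPS19 and RPS24. The printed windows of RPS10, RPS19, RPL41 and RPL37A lie at these starts. Gene length was not matched in this comparison.

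With the other hairpins hardly any member peak was listed at the start. In the authors' deposited table of effects for ALKBH5 shRNA-2, 1 of 61 member peaks lay within 100 bases, that of RPL36 with -0.63, where 2.11% of all listed peaks did. The fraction table of that hairpin had 0 of 3 there, and the authors' deposited table of effects for RBM33 shRNA-1 and that for shRNA-2 had 0 of 6 and 0 of 10, where 1.69% and 1.53% of all listed peaks lay that close. Whether the hairpins differ in this was not tested, since the tables hold no value per library.

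**Figure D5:**
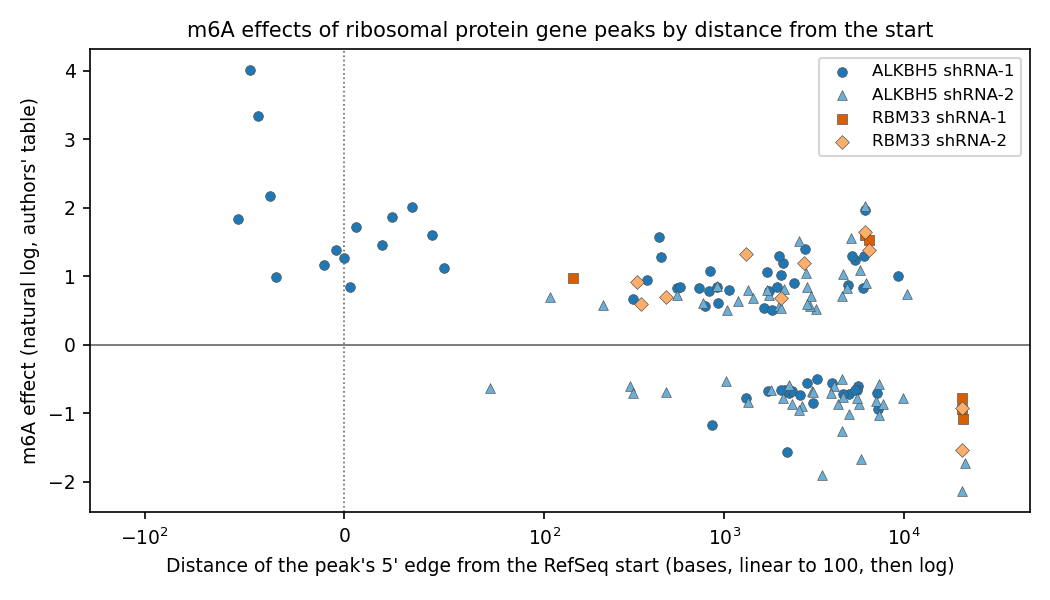
m6A effect of each listed peak of a ribosomal protein gene (y axis, natural log, authors' estimate) by the distance of its 5′ edge from the RefSeq start (x axis, bases, linear to 100 and logarithmic beyond). Circles, triangles, squares and diamonds are ALKBH5 shRNA-1, ALKBH5 shRNA-2, RBM33 shRNA-1 and RBM33 shRNA-2. Within 100 bases of the start there are 15 peaks of ALKBH5 shRNA-1, all above 0, and 1 of ALKBH5 shRNA-2, below 0.

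With ALKBH5 shRNA-1, 7 of the 18 members with a listed higher m6A fraction were called higher in RNA, with a median log2 difference of 0.15, and 21 of the other 66 were, with a median of 0.20. The difference between these groups of members was not tested. RPS19, RPS10 and RPL3, with the largest listed ratios of fractions, had RNA differences with this hairpin of 0.20 (limma adjusted p = 0.165), 0.32 (0.0247) and 0.08 (0.605).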

How the data were processed

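RNA-seq and m6A-seq were deposited as tables of the whole series. Expression values are gene signal in CPM that the authors scaled to effective library sizes. Recovered reads rescaled by TMM gave the deposited values back, with a median difference of 0.000119%. Of the low values, 100% were whole reads within 0.1 read. Higher values, among them those of many members, were not in that check. The submitters' processing notes name cutadapt 1.18, HISAT2 2.1.0, featureCounts of Subread 1.6.4, edgeR 3.24.3 and DESeq2, with hg38 as the genome build. Libraries came from a stranded total RNA kit per the labels' protocols, and the strand setting of the counting, the peak caller and the differential m6A tool are not given in the sources used here. Comparisons per gene are log2 fold changes, p-values and adjusted p-values in the authors' deposited tables, and m6A comparisons in the authors' deposited tables give a fraction per condition, its log2 ratio, p-values or an effect per peak, taken as a natural log from its values. Some of the m6A tables are marked in their names with an effect of at least 0.5.

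Tests used limma 3.58.1 in R 4.3.3, fitting log2(CPM + 1) by 6 group means of 15 libraries with a variance trend, with 9 residual degrees of freedom before moderation, on 18227 genes whose mean reached 1 CPM (83.6% of those listed). Adjusted p-values are Benjamini-Hochberg over all genes tested, and calls are at 0.05. Fold changes are on the log2(value + 1) scale, which understates those of low genes. The test was checked on simulated data. Alternatives were edgeR 4.0.16 quasi-likelihood and DESeq2 1.42.0 on recovered reads, pseudocount 0.5, no filter, other scalings, a gene-length trend, a fit on the groups of the contrast only, a replicate block, a minimum log2 difference of 0.5 and leaving out each library. Plain library totals were added after seeing the data. Replicate numbers did not pair the samples: deviations of same-numbered libraries from their group means correlated at -0.076 to 0.074 over genes.

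Genes were named by a rule: by role, up to 10 with the largest difference among those called in each direction, the highest and lowest levels per length, members against the majority, the P-stalk, all copies, members with other roles and every member with a listed peak. From other lists, the 3 largest called in each direction were named, or more where few were called. Some genes that the rule names are not reported here. RPL10L was part of the rule for copies and was not analysed here. Members and lists were chosen with earlier results of these data known. There were 3 RNA-seq libraries not analysed here. RefSeq windows (GRCh38.p14) were matched by symbol.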

Additional observations from a re-analysis of the deposited data

Results flagged for a closer look

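The effects of ALKBH5 and RBM33 hairpins, each against its own scramble, differed by limma's interaction test in 41 of the 84 ribosomal protein genes. Among the 10 largest interactions on the log2(CPM + 1) scale were those of RPL27 (0.86), RPL35 (0.81), RPS27 (0.77), RPLP1 (0.73), RPL26L1 (0.67), RPL35A (0.65), RPS7 (0.65) and RPL34 (0.63). Beside them stands the difference between the scramble groups, with a median of -0.38 over the members, and that between the shRNA groups, with a median of 0.00. By its definition, a gene's interaction equals its difference between the shRNA groups minus that between the scramble groups. What sets the scramble groups apart was not tested.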

How the results depend on the processing

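Of 41 named member differences, 36 were called in every alternative, 5 were lost in some and 0 changed direction. With an absolute log2 difference of at least 0.5 the called members were 10 (ALKBH5), 2 (RBM33), 23 (interaction), 17 (scrambles), 8 and 10 (ALKBH5 shRNA-1 and shRNA-2), 1 and 2 (RBM33 shRNA-1 and shRNA-2). Shares of all genes at this threshold are not given here, so these counts cannot be set against them. The scramble comparison gave 39 members and a median of -0.27 under totals without ribosomal and mitochondrial genes, and 37 and -0.26 under plain totals, chosen after seeing the data. Plain totals also gave 43 higher and 1 lower (ALKBH5) and 4 higher and 17 lower (RBM33). DESeq2 gave 18 members for RBM33 shRNA-1. The replicate block gave 18 members for ALKBH5 shRNA-1 and an adjusted p of 0.0515 for RPL39L in the RBM33 set, moved no other count of called members by over 1.5 times, and could not be fitted across sets. Of 25 m6A peaks in the fraction tables, 14 had an adjusted p under 0.01.

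Leaving out 1 library at a time gave 30 to 45 members (ALKBH5), 13 to 31 (RBM33), 22 to 45 (interaction), 37 to 59 (scrambles), 0 to 0 (shRNA groups and hairpins of 1 target), 11 to 21 and 8 to 43 (ALKBH5 shRNA-1 and shRNA-2), and 2 to 9 and 13 to 19 (RBM33 shRNA-1 and shRNA-2). The medians ranged from 0.20 to 0.30 (ALKBH5), -0.22 to -0.13 (RBM33), 0.34 to 0.44 (interaction), -0.41 to -0.36 (scrambles) and -0.05 to 0.04 (shRNA groups). The causes were not tested. A fit on only the groups of the contrast equals the main fit for the interaction. Depth limits RPL3L, near the level of 3 reads in some libraries.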
